A study of Mus musculus with 2 samples.

Results

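The receptors through which cells hold collagen and fibronectin were compared between primary rib chondrocytes and primary dermal fibroblasts of newborn mice. They comprised 10 genes, selected by symbol from the 24421 rows of the deposited count table. Each symbol matched 1 row. They were 4 collagen-binding integrin alpha chains (*Itga1*, *Itga2*, *Itga10* and *Itga11*), 3 alpha chains that bind fibronectin and related ligands (*Itga5*, *Itga8* and *Itgav*), the beta chain *Itgb1*, and the discoidin domain receptors *Ddr1* and *Ddr2*. All 10 had at least 10 counts in at least 1 library and entered the comparison.

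The study compared these cell types to find genes with higher expression in chondrocytes. Primary chondrocytes were released from rib cartilage by collagenase and used within 2 passages, and primary dermal fibroblasts came from collagenase-digested dorsal skin. No genetic change or treatment is stated for either, and the number of animals behind each library is not given in the sources used here. Each cell type had 1 library of stranded mRNA, so no difference has a replicate check, no p-value was computed, and the intervals cover counting error only. They describe these libraries and not the variation between animals or cultures.

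Integrins are pairs of 1 alpha and 1 beta chain that span the cell membrane. The alpha chain largely sets which matrix protein is bound, and the beta chain links the pair to the actin cytoskeleton through talin and kindlin. The alpha chains *Itga1*, *Itga2*, *Itga10* and *Itga11* pair with *Itgb1* and bind native collagen. *Itga5* with *Itgb1* is the classical fibronectin receptor, and *Itgav* also pairs with other beta chains and binds vitronectin and latent transforming growth factor beta. Discoidin domain receptors are tyrosine kinases that triple-helical collagen activates without an integrin. In cartilage, *Itga10* is known as a receptor for collagen II, and *Itga11* is known from fibroblasts, where it binds collagen I.

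The libraries held 18788599 counts for chondrocytes and 17563724 for dermal fibroblasts, of which the 10 receptors took 30230 and 45668. A larger part of the reads went to the top 10 genes in chondrocytes (18.6%) than in dermal fibroblasts (9.09%). Counts were therefore scaled with TMM factors, which set library sizes by the bulk of genes rather than by the total, and given as CPM, the counts per 1000000 scaled counts of the library. A fold over 2 was called. Of the 8 chondrocyte markers, 8 were over 2-fold higher in chondrocytes, and *Col2a1* and *Matn1* were at 0 in dermal fibroblasts. Of the 8 dermal fibroblast markers, 7 were over 2-fold higher in dermal fibroblasts, while *Lum* was 1.14-fold higher in chondrocytes. These 8 markers summed to 4323 CPM in chondrocytes and 34080 CPM in dermal fibroblasts, and none was at 0. *Col1a1* alone was counted 39143 times in the chondrocyte library and 322379 times in the other. The part of fibroblasts in the chondrocyte counts of the receptors, *Itga11* among them, was not tested.

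Of the 10 receptors, 6 differed over 2-fold, 2 of them toward chondrocytes and 4 toward dermal fibroblasts. The called genes were *Itga10* and *Itga1* in the first direction and *Itga2*, *Itga11*, *Itga8* and *Itgav* in the second. The other 4, *Itga5*, *Itgb1*, *Ddr1* and *Ddr2*, lay within 2-fold. Of the 14291 genes with at least 10 counts in 1 library, 28% differed over 2-fold, 11.8% toward chondrocytes and 16.2% toward dermal fibroblasts. Over 4-fold, 1 receptor was higher in chondrocytes and 2 in dermal fibroblasts, beside 4.99% and 6.5% of all genes. The whole counting interval lay beyond 2-fold for 2 and 4 receptors, beside 7.21% and 10.8% of all genes. The median log2 fold of the 10 receptors was -0.63, against -0.003 over all genes tested. As the libraries are bulk samples, fewer cells of a type and less RNA per cell cannot be told apart.

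**Figure D1:**
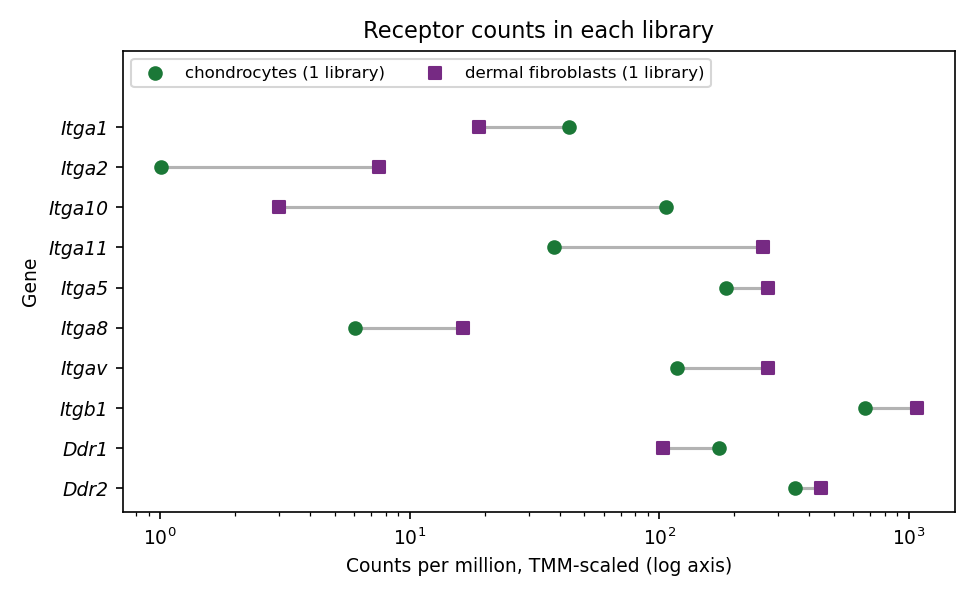
Level of each receptor in CPM after TMM scaling (log axis), with 1 point per library. The points lie farthest apart for *Itga10* (106 CPM in chondrocytes and 2.99 in dermal fibroblasts), and *Itgb1* has the highest CPM in both libraries.

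The widest differences lay among the collagen-binding alpha chains, of which 2 were higher in each cell type. *Itga10* (chromosome 3 of GRCm38, 96645584 to 96664519, plus strand) had 1907 counts in chondrocytes against 55 in dermal fibroblasts. On the CPM scale these were 106 and 2.99, and the fold was 35.6 (95% counting interval 27.2 to 47.4). Its log2 fold of 5.15 was above that of 99.4% of the genes tested. In the older GENCODE vM1 annotation, *Itga10*, *Itga8*, *Itgav*, *Ddr1* and *Ddr2* share exon bases with other annotated genes. How the counting program divided reads there is not stated, and the part of such reads in these counts was not tested.

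*Itga11* (chromosome 9, 62677855 to 62783979, plus strand) had 678 counts in chondrocytes against 4791 in dermal fibroblasts. These were 37.8 and 260 CPM, a 6.88-fold difference toward dermal fibroblasts (interval 6.35 to 7.47). *Itga11* was thus well counted in both libraries, whereas *Itga10* had few reads in dermal fibroblasts. The counts of *Itga10* were 2.81 times those of *Itga11* in chondrocytes and 0.0115 times in dermal fibroblasts. The ratio of these ratios, which needs neither scaling between libraries nor gene lengths, was 245 (interval 185 to 330).

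To place this opposite pair in the genome, the 200 bases before the RefSeq start of each gene are given, 5′ to 3′ on the gene's strand (RefSeq, GRCm38.p6). Capitals mark CpG dinucleotides. *Itga10* lies at chr3:96645384-96645583 and *Itga11* at chr9:62677655-62677854, and neither window overlaps a RefSeq gene.
Itga10: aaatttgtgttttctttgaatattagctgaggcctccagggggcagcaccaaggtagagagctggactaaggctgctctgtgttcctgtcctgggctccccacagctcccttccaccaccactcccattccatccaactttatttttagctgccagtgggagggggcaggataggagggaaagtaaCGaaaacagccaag
Itga11: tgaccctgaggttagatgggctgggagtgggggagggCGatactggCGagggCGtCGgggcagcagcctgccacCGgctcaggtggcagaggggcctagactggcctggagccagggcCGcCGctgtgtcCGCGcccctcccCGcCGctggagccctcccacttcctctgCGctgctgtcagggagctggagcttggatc

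The *Itga10* window held 1 CpG, more than in 10.6% of 32851 RefSeq promoters of this length, and 52.0% of its bases were G or C. The *Itga11* window held 12 CpGs, more than in 70.6% of promoters, with 71.0% G or C. The windows of *Itga1* and *Itga2* held 8 and 12 CpGs. The windows were searched on both strands for the SOX core AACAAT, the SOX or TCF site ACAAAG, the GC box GGGCGG, the TATA box TATAAA, the AP-1 site TGACTCA and the RUNX site TGTGGT. None of these letter strings occurred in the windows of *Itga10* and *Itga11*. Among all promoters, 7.46% held the SOX core, 13.3% the SOX or TCF site, 31.1% the GC box, 9.96% the TATA box, 3.66% the AP-1 site and 11.2% the RUNX site. Of the 13 promoters of the 10 receptor genes, 0 held the SOX core, 2 the SOX or TCF site, 5 the GC box, 1 the TATA box, 1 the AP-1 site and 0 the RUNX site. No match says only that these letters are not in this window.

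*Itga1*, which binds collagen IV and other collagens, had 777 counts in chondrocytes against 348 in dermal fibroblasts. It was 2.29-fold higher in chondrocytes, and its interval (2.02 to 2.61) lay just above 2-fold. The gene (chromosome 13, 114958079 to 115101964, minus strand) surrounds *Pelo*, a ribosome rescue factor of 1804 bp on the same strand. *Pelo* had 715 and 438 counts, and its exons share 0 bases with those of *Itga1* in GENCODE vM1. *Itga2*, a collagen receptor known from platelets and epithelium, lies beside it (114833081 to 114932100). It had only 18 counts in chondrocytes against 139 in dermal fibroblasts and was 7.52-fold higher in dermal fibroblasts, with a wide interval (4.59 to 13.1). The neighbours *Itga1* and *Itga2* thus differed in opposite directions.

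*Itga2* is expressed in keratinocytes, and the keratinocyte markers moved in the same direction. Of the 8 markers, 7 had at least 10 counts in 1 library and 5 of these were over 2-fold higher in dermal fibroblasts. Their summed level was 9.09 CPM in chondrocytes and 257 CPM in dermal fibroblasts, and none was at 0 in either library. *Krt14* had 17 and 1939 counts, *Krt5* 1 and 1693, and *Dsp* 27 and 722. Their part in the *Itga2* counts was not tested.

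**Figure D2:**
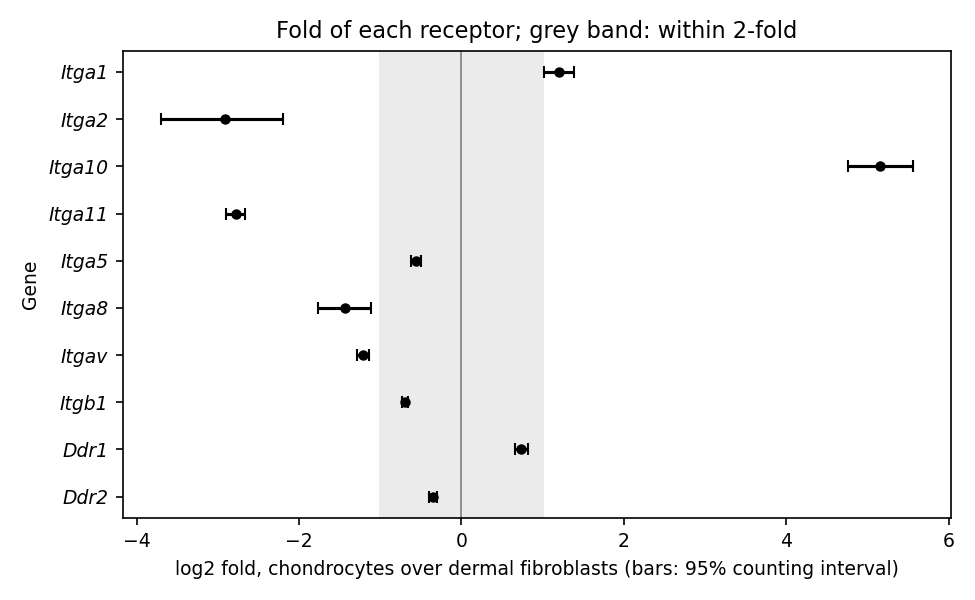
Log2 fold of each receptor, chondrocytes over dermal fibroblasts, with 95% counting intervals as bars and the range within 2-fold shaded. *Itga10* (5.15) and *Itga1* (1.20) lie to the right of the shaded range, *Itga2*, *Itga11*, *Itga8* and *Itgav* to its left, and *Itga5*, *Itgb1*, *Ddr1* and *Ddr2* inside it.

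The alpha chains that bind fibronectin all had fewer scaled counts in chondrocytes. *Itgav* (chromosome 2, 83722303 to 83806917, plus strand) had 2112 counts in chondrocytes against 5031 in dermal fibroblasts, which was 2.32-fold higher in dermal fibroblasts (counting interval 2.204 to 2.441). *Itga8*, a receptor for nephronectin and fibronectin that is known from smooth muscle and kidney, had 108 and 300 counts. It was 2.70-fold higher in dermal fibroblasts (counting interval 2.16 to 3.40). *Itga5* (chromosome 15, 103344286 to 103366791, minus strand) was well expressed in both libraries, with 3310 and 5019 counts. Its difference of 1.48-fold toward dermal fibroblasts (interval 1.41 to 1.54) was not called.

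Smooth muscle and endothelial cells are known to use *Itga8* and *Itga1*. Most markers of these cells were higher in dermal fibroblasts, the direction of *Itga8*, whereas *Itga1* was higher in chondrocytes. Of the 6 smooth muscle markers, 4 were over 2-fold higher there, and their sum was 769 CPM in chondrocytes and 1980 CPM in dermal fibroblasts. *Acta2* had 9075 and 25773 counts, *Tagln* 2041 and 7518, while *Smtn* leaned the other way with 2273 and 1877 (1.24-fold). Of the 6 endothelial markers, 5 were over 2-fold higher in dermal fibroblasts, with sums of 14.6 and 49.3 CPM. *Pecam1* had 70 and 120 counts, *Cdh5* 68 and 198, and *Kdr* 70 and 276. None of these markers was at 0, and their part in the receptor counts was not tested.

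*Itgb1*, the partner of each of these alpha chains, had 11953 counts in chondrocytes against 19864 in dermal fibroblasts. The gene lies on chromosome 8 from 128685654 to 128733579. Its level was 667 CPM and 1079 CPM, and the difference of 1.62-fold toward dermal fibroblasts (interval 1.58 to 1.65) was not called. Relative to *Itgb1* counts, *Itga10* was 57.6 times higher in chondrocytes (interval 44.0 to 76.8) and *Itga1* 3.71 times higher (interval 3.26 to 4.23). *Itga11* was 4.25 times higher relative to *Itgb1* in dermal fibroblasts (interval 3.91 to 4.63) and *Itgav* 1.43 times (interval 1.35 to 1.52). *Itga5* followed *Itgb1* closely, since the ratio of their counts was 0.277 in chondrocytes and 0.253 in dermal fibroblasts.

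The discoidin domain receptors both lay within 2-fold. *Ddr2*, which fibrillar collagens activate and which supports bone growth, had 6261 counts in chondrocytes against 8210 in dermal fibroblasts. It was 1.28-fold higher in dermal fibroblasts (counting interval 1.24 to 1.32). *Ddr1*, known mainly from epithelium, had 3106 and 1911 counts and was 1.67-fold higher in chondrocytes (interval 1.58 to 1.77). They thus leaned in opposite directions. The ratio of *Ddr1* to *Ddr2* counts was 0.496 in chondrocytes against 0.233 in dermal fibroblasts, a 2.13-fold difference (interval 1.995 to 2.278).

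Levels of different genes were compared per kilobase of exon, as the CPM divided by the exon length in kilobases (RPKM), with lengths from GENCODE vM1. In chondrocytes *Itgb1* stood first at 163 RPKM, followed by *Itga5* (42.2), *Ddr2* (41.5), *Ddr1* (36.3), *Itga10* (20.5), *Itgav* (10.97), *Itga11* (7.37), *Itga1* (5.42), *Itga8* (0.828) and *Itga2* (0.238). The counting intervals of *Itga5* and *Ddr2* overlapped, and those of all other neighbours in this order did not. This order depended on the length used: with the longest transcript, *Ddr1* (44.7 RPKM) stood ahead of *Itga5* (42.2) and *Ddr2* (42.1). The intervals of *Ddr1* and *Itga5* then overlapped, as did those of *Itga5* and *Ddr2* and those of *Itga11* (7.61) and *Itga1* (7.24). In dermal fibroblasts the RPKM order was *Itgb1* (264), *Itga5* (62.3), *Ddr2* (52.9), *Itga11* (50.7), *Itgav* (25.4), *Ddr1* (21.7), *Itga1* (2.36), *Itga8* (2.24), *Itga2* (1.79) and *Itga10* (0.576). Here the intervals of *Ddr2* and *Itga11* overlapped, as did those of *Itga1* and *Itga8* and those of *Itga8* and *Itga2*. *Itga10* moved from the leading collagen-binding chain in chondrocytes to the last place in dermal fibroblasts. In RPKM *Itgb1* exceeded 98.1% of genes in chondrocytes and 98.7% in dermal fibroblasts, among 13170 genes with a length.

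Within the 7 alpha chains, the collagen-binding class took nearly the same share per length in both libraries, 38.3% in chondrocytes (interval 37.3 to 39.4) and 38.1% in dermal fibroblasts (37.3 to 38.9). Its make-up differed. *Itga10* made up 61.2% of the class in chondrocytes and 1.04% in dermal fibroblasts, while *Itga11* made up 22.0% and 91.5%. *Itga1* made up 16.2% and 4.26%, and *Itga2* 0.710% and 3.23%. Among all 7 chains, *Itga5* took the largest share per length in both libraries, 48.2% and 42.8%. Without length, *Itga5* (32.0%) and *Itgav* (32.1%) did not differ beyond counting error in dermal fibroblasts. The near equality of the class share rests on the lengths used, since raw counts gave 37.9% and 34.0% and the longest transcript of each gene gave 37.7% and 35.8%. Summed per length, the 7 alpha chains reached 0.536 times the level of *Itgb1* in chondrocytes (interval 0.521 to 0.551) and 0.550 times in dermal fibroblasts (0.538 to 0.562). The 11 other integrin alpha chains are left out of this sum, so it does not cover all possible partners of *Itgb1*. Among them, *Itga7* (18.9 RPKM in chondrocytes and 11.7 in dermal fibroblasts), *Itga6* (13.9 and 5.65) and *Itga3* (6.24 and 2.17) were higher in chondrocytes. *Itga4* (0.599 and 2.99) was higher in dermal fibroblasts, and *Itga9* (4.66 and 4.81) was nearly equal. The closeness of the values is thus shown for the 7 chains only, and a sum with the others was not computed.

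**Figure D3:**
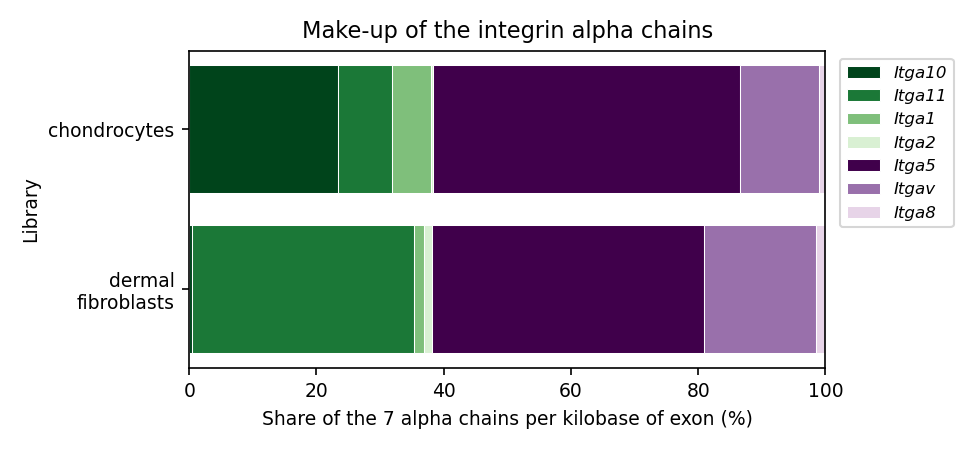
Share of each integrin alpha chain among the 7 chains, in percent of their summed level per kilobase of exon, with 1 bar per library. The green segments are collagen-binding chains and the purple segments bind fibronectin and related ligands. The green part ends at 38.3% in chondrocytes and 38.1% in dermal fibroblasts, and it consists mostly of *Itga10* in the first and of *Itga11* in the second.

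The other alpha chains lay on both sides. Of the 11 other alpha chains, 10 had at least 10 counts in 1 library (median log2 fold 0.095). Of these, 3 were over 2-fold higher in chondrocytes and 2 in dermal fibroblasts, beside 11.8% and 16.2% of all genes tested. The laminin receptor chains *Itga6* (2251 and 938 counts) and *Itga3* (639 and 228) were 2.46-fold and 2.88-fold higher in chondrocytes. *Itga4*, which binds fibronectin at another site than *Itga5*, had 150 and 769 counts and was 4.99-fold higher in dermal fibroblasts. *Itga7*, a laminin receptor of muscle, was 1.61-fold higher in chondrocytes (1442 and 919 counts), and *Itga9* was 1.03-fold higher in dermal fibroblasts (643 and 681 counts). Of the 10 skeletal muscle markers, 6 were over 2-fold higher in chondrocytes and none was at 0. The 10 markers summed to 1859 and 1304 CPM, and their median log2 fold was 1.15. The 3 most abundant, *Myh3* (7784 and 6497 counts), *Actc1* (7288 and 7970) and *Acta1* (6259 and 4705), lay within 2-fold. The part of muscle cells in the *Itga7* counts was not tested.

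Of the 7 other beta chains, 0 were over 2-fold higher in chondrocytes and 1 in dermal fibroblasts (median log2 fold -0.52). The shares over all genes tested were 11.8% and 16.2%. The 1 called beta chain was *Itgb3*, a partner of *Itgav* in the vitronectin receptor, with 135 and 699 counts and a 5.04-fold difference. *Itgb5*, another partner of *Itgav*, had 3422 and 5041 counts and was 1.43-fold higher in dermal fibroblasts. *Itgb4*, the hemidesmosome chain, had 251 and 443 counts and was 1.72-fold higher in dermal fibroblasts. *Itgav*, *Itgb3* and *Itgb5* therefore all had more scaled counts in dermal fibroblasts, and only *Itgav* and *Itgb3* of these were past 2-fold.

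Most collagen ligands of these receptors differed. Of 17 collagen chains, 7 were over 2-fold higher in chondrocytes and 8 in dermal fibroblasts (median log2 fold -0.35). The chondrocyte library held 1447098 counts of *Col2a1*, the collagen II gene, and the other library held 0. *Col1a1* was 8.02-fold and *Col3a1* 8.29-fold higher in dermal fibroblasts. Of 14 genes for fibronectin and other integrin ligands, most with an RGD motif, 13 were tested. Of these, 4 were over 2-fold higher in chondrocytes and 5 in dermal fibroblasts (median log2 fold -0.26). For both ligand lists, the shares over all genes tested were 11.8% toward chondrocytes and 16.2% toward dermal fibroblasts. *Fn1*, the fibronectin gene, was 5.96-fold higher in chondrocytes (674829 and 116258 counts), the opposite direction to *Itgav* and *Itga8* and to the uncalled difference of *Itga5*. *Thbs1* was 1.40-fold higher in chondrocytes and *Fbn1* 2.07-fold higher in dermal fibroblasts. *Postn*, a ligand of *Itgav* integrins, was 7.13-fold higher in dermal fibroblasts, and *Ibsp*, a bone sialoprotein, had 349 counts in chondrocytes against 1 in dermal fibroblasts.

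Of the 29 adhesion adaptors and kinases that act behind integrins, 0 were over 2-fold higher in chondrocytes and 7 in dermal fibroblasts. The other 22 lay within 2-fold (median log2 fold -0.21), beside 10288 of the 14291 genes tested. Of all genes tested, 11.8% were over 2-fold higher in chondrocytes and 16.2% in dermal fibroblasts. *Itgb1bp1*, which binds the tail of *Itgb1*, was 2.54-fold higher in dermal fibroblasts (357 and 932 counts). The actin crosslinker *Flna*, a further binder of beta chain tails, was 1.75-fold higher in dermal fibroblasts. Talin (*Tln1*) was 1.15-fold higher in dermal fibroblasts, *Actn4* was 1.02-fold higher in chondrocytes, and the tensin *Tns2* was 1.93-fold higher in chondrocytes. Of 7 other surface proteins that bind collagen or fibronectin, 5 were tested (median log2 fold -0.099). The only one past 2-fold was the syndecan *Sdc4*, a coreceptor for fibronectin, which was 6.48-fold higher in chondrocytes (6003 and 951 counts). The collagen uptake receptor *Mrc2* was 1.12-fold higher in chondrocytes, and *Cd44* and *Cd36* were 1.23-fold and 1.54-fold higher in dermal fibroblasts.

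**Figure D4:**
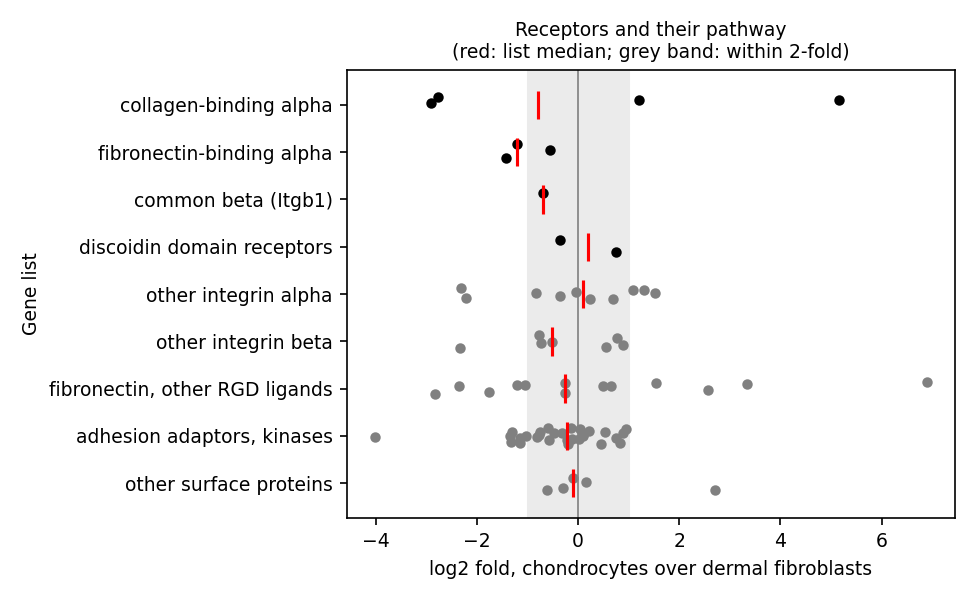
Log2 fold, chondrocytes over dermal fibroblasts, of each receptor (black) and each tested gene of the pathway lists (grey), with list medians in red and the range within 2-fold shaded. The collagen-binding alpha chains spread from -2.91 to 5.15. In the shaded range lie 22 of the 29 adaptors and kinases, beside 10288 of the 14291 genes tested. The point at -4.02 is *Fermt1*, at 0 counts in chondrocytes and set to 3, and collagen chains are not drawn.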

How the data were processed

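RNA-Seq data from 1 chondrocyte library and 1 dermal fibroblast library were used, grouped by their labels. The authors sequenced stranded mRNA libraries in 75 bp single-end mode, mapped them to mm10 with TopHat2 2.0.13, Bowtie2 2.2.3 and SAMtools 0.1.19, and deposited raw read counts per gene symbol. The counting program and its strand setting are not given in the sources used here. Library sizes were scaled with edgeR 4.0.16 TMM factors in R 4.3.3, and CPM and RPKM values, folds and 95% Clopper-Pearson counting intervals were computed in Python 3.11.15 with scipy 1.17.1. Ratios between 2 receptors have exact conditional intervals, and RPKM values have exact Poisson intervals. Shares of a class and the sum of the alpha chains over *Itgb1* have delta-method intervals. Folds used a floor of 3 counts. The reads carry no molecular identifiers, so repeated reads of 1 molecule cannot be recognised, and the intervals treat each read as separate. With 1 library per cell type, the intervals cover counting error only. GENCODE vM1 exon lengths covered 92.2% of tested genes and 10 of 10 receptors. Its build differs from that of the counts, so only lengths and shared exon bases were taken from it. Positions are those of RefSeq GRCm38.p6, and promoters matched 10 of 10 genes.

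The receptors and lists were chosen with earlier results of these data known. Other genes named were the 3 most abundant of each list and, for pathway lists, the largest fold in each direction among genes with at least 100 counts in 1 library. *Pelo*, *Lum*, *Fermt1* and the leukocyte chains in the closing part were named after their values were seen, and the promoter motifs were also chosen then. The fold intervals were tested on simulated counts that held random counting error only, the error that the intervals assume. This test cannot show how they would cover variation between animals or cultures. The alternatives were other scalings (DESeq2 1.42.0 size factors among them), floors, a pseudocount, no filter, stricter thresholds and other gene lengths. Some genes, and the results that need them, are not reported here.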

Additional observations from a re-analysis of the deposited data

How the results depend on the processing

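No paired analysis was possible because only 1 library stood for each cell type, and for the same reason no replicate could be left out. The direction of each of the 10 receptor folds was the same under 6 alternatives (5 scalings and a pseudocount), and 14 of these 60 values left the counting interval of the main value. A scaling moves all receptor folds by a common factor, here by -0.136 in log2 at the most. The receptor log2 fold nearest to no difference was -0.352 (*Ddr2*), so none of these scalings could reverse a direction. The other 2 floors cannot alter a receptor fold, since no receptor had fewer than 18 counts. With a fold over 4, 1 receptor was called higher in chondrocytes and 2 in dermal fibroblasts, against 713 and 929 of all genes. With the whole counting interval beyond 2-fold, 1031 genes were called higher in chondrocytes. The main counts over all genes were 1684 and 2319. The median log2 fold of the receptors was -0.76 with total counts and -0.51 with *Actb*, scalings that moved the median of all genes by -0.14 and 0.12. *Itga1* was nearest to the threshold and ranged from 2.09-fold to 2.50-fold. *Itga2* rests on 18 counts in chondrocytes, and depth limits its fold.

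Shares among the 7 alpha chains moved with gene length. Without length, the chondrocyte shares were 8.72% for *Itga1*, 21.4% for *Itga10*, 7.61% for *Itga11*, 37.1% for *Itga5*, 1.21% for *Itga8* and 23.7% for *Itgav*. In dermal fibroblasts they were 2.22% for *Itga1*, 0.886% for *Itga2*, 30.5% for *Itga11*, 32.0% for *Itga5*, 1.91% for *Itga8* and 32.1% for *Itgav*. With the longest transcript, the chondrocyte shares were 7.54% for *Itga1*, 21.9% for *Itga10*, 43.9% for *Itga5* and 17.4% for *Itgav*. In dermal fibroblasts they were 1.95% for *Itga1*, 32.4% for *Itga11*, 38.5% for *Itga5*, 1.73% for *Itga8* and 24.0% for *Itgav*. The collagen-binding class in dermal fibroblasts took 34.0% without length and 35.8% with the longest transcript. The 7 alpha chains reached 0.745 and 0.789 times *Itgb1* without length (chondrocytes and dermal fibroblasts), and 0.572 times in dermal fibroblasts with the longest transcript. The longest transcript also raised the neighbours with overlapping intervals in the chondrocyte level order from 1 to 3, and in dermal fibroblasts there were 3 and then 2. These alternatives for the class, for *Itgb1* and for the level order were chosen after seeing the data.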

Other observations

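The leukocyte integrins were at low levels in both libraries. *Itgb2*, the beta chain shared by leukocyte integrins, had 128 counts in chondrocytes against 219 in dermal fibroblasts. Its partner *Itgam* had 133 and 245 counts, *Itgax* had 45 and 215, *Itgal* had 35 and 17, and *Itgad* had 19 and 25. *Itgax* was 4.65-fold higher in dermal fibroblasts and *Itgal* 2.12-fold higher in chondrocytes (counting interval from 1.15). Of the 6 leukocyte and macrophage markers, 1 was over 2-fold higher in dermal fibroblasts and none was at 0, with sums of 108 and 172 CPM. *Lyz2* had 1046 and 1639 counts, *Cd68* 423 and 600, and *Csf1r* 160 and 430.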
